A study of Mus musculus with 10 samples.

Results

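Herpud2 and Gm29642 are neighbouring genes on mouse chromosome 9 that were both higher after doxycycline (DOX) in leukemic cells with an inducible miR-139 construct. They were described here together with 7 genes of endoplasmic reticulum-associated degradation (ERAD), namely Herpud1, Sel1l, Syvn1, Derl1, Derl2, Edem1 and Vcp, so 9 genes of the 52550 in the count table. All 9 were found by symbol through their Ensembl identifiers. Herpud2 and Gm29642 were selected on the difference between the MLL-AF9-i139 libraries with and without DOX, so that difference is a description for them and carries no test. The other 7 were chosen for their role in ERAD, with earlier results of these data known. The question was whether other ERAD genes moved with Herpud2 or whether the difference was local to its chromosomal position.

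All 10 libraries came from hematopoietic stem and progenitor cell-enriched bone marrow of C57BL/6 mice aged 8 to 20 weeks. The cells were transformed with a retrovirus for the MLL-AF9 fusion oncogene and carried tetR-KRAB, a repressor that DOX releases. MLL-AF9-i139 clones additionally carried a lentiviral construct from which DOX induces miR-139. Each of 3 clones was sequenced without DOX and with DOX at 5 µg/mL, for 48 h in clones 1 and 2 and for 72 h in clone 3, so clone and time cannot be told apart. The labels give no culture time for the untreated clones, so DOX and a difference in culture time cannot be told apart either. The MLL-AF9-ieGFP control, in which DOX induces eGFP, was 1 clone whose treated and untreated cultures were sequenced at 48 h and again at 72 h, so its 2 libraries a group are culture times and not clones. The p-values below therefore measure the spread between these libraries.

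Each library held between 35133308 and 47089725 counts, at which 3 counts are worth 0.0637 to 0.0854 CPM (counts scaled to a common library total). Mir139 itself had 0 counts in all 10 libraries, so induction of the microRNA cannot be checked here. Of 7 markers of the transformed cells, Kit, Fcgr3, Ly6c2, Ptprc, Hoxa9 and Meis1 were present in every library, whereas Itgam, which encodes CD11b, had at most 3 counts. The study describes the cells as CD11b-positive, and the reason for this low count was not tested. Markers of T cells, B cells, erythroid cells and stroma were at or near 0. The summed level of 5 macrophage markers was 0.837 to 1.99 CPM in the untreated MLL-AF9-i139 libraries and 0.813 to 9.23 CPM with DOX, and at most 1.64 CPM in MLL-AF9-ieGFP, with C1qa and C1qc at 0 throughout. Most of it was Adgre1, which encodes F4/80 (log2 fold change 1.71, adjusted p = 0.245 by edgeR and 0.0562 with the clone as a block). Fcgr3, an Fc receptor gene, had a log2 fold change of 1.37 (adjusted p = 0.120 by edgeR and 0.0332 with the block). Other markers of the transformed cells went both ways, with Ptprc at 0.50, Kit at 0.03, Meis1 at -0.16 and Ly6c2 at -0.29. Hoxa9 was lowest at -0.35 (adjusted p = 0.213 by edgeR and 0.0428 with the block). The summed level of 5 mature neutrophil markers was 52.7 to 92.6 CPM in the untreated MLL-AF9-i139 libraries and 119 to 204 CPM with DOX, against 76.6 to 120 CPM and 91.7 to 141 CPM in MLL-AF9-ieGFP. Most of it was Ngp, a granule protein gene (log2 fold change 1.34, adjusted p = 0.0955 by edgeR and 0.0109 with the block). Ly6g, Ltf and Camp had 0.27, 0.46 and 0.45, Mmp8 went the other way at -0.82, and none of them was called in either fit. These marker differences ran alongside the DOX differences given below, and their part in them was not tested. In such bulk libraries, a change in the share of a cell type and a change in RNA per cell cannot be told apart.

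ERAD removes misfolded proteins from the endoplasmic reticulum (ER). Lectins and mannosidases such as Edem1 pick out misfolded glycoproteins, the membrane-bound ubiquitin ligase Syvn1 (HRD1) with its partner Sel1l marks them, derlins help to move them across the membrane, and the ATPase Vcp (p97) pulls them into the cytosol for the proteasome. Herpud1, a membrane protein with a ubiquitin-like domain that joins the HRD1 complex, is a well-known target of the unfolded protein response, and Herpud2 is its less studied paralog. Several ERAD genes carry an ER stress response element (ERSE) in the promoter, at which ATF6 and XBP1 act.

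The annotation places the chosen neighbours head to head. Herpud2 lies on the minus strand of GRCm38 at chr9:25108132-25151820, and Gm29642, a long intergenic non-coding RNA gene with no assigned function in the annotation, lies on the plus strand at chr9:25152114-25175561. Their annotated bodies are 293 bp apart and share no exon with each other or with any other gene. In RefSeq the starts lie 245 bp apart. Of the 27025 genes with a promoter window, 12.3% have a start on the opposite strand that diverges within 1000 bp. The stretch between them at chr9:25151821-25152025, on the plus strand of GRCm38.p6, mixes annotations. It runs from the GENCODE start of Herpud2 to the RefSeq start of Gm29642. It is shown because it is the promoter both genes face, with CpG dinucleotides in capitals.
Herpud2 and Gm29642 shared upstream stretch: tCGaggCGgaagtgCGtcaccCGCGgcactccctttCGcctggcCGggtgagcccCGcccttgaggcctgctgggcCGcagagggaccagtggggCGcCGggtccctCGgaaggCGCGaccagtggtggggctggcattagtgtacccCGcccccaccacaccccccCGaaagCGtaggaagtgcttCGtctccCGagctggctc

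These 205 bases held 19 CpG dinucleotides, with 71.2% G and C. The 300-base promoter windows, which run from 250 bases before to 50 after each RefSeq start, had 72.7% G and C for Herpud2 and 66.0% for Gm29642, against a median of 52.7% over 32851 windows. The Herpud2 window held 32 CpG dinucleotides and the median window 7, and 9.52% of windows held as many or more.

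The windows of 8 of the 9 genes were searched on both strands for 4 sets of letters. These were the ERSE, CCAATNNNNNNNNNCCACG, found in 0.119% of all windows, the ERSE-II, ATTGGNCCACG, in 0.0365%, the core of the unfolded protein response element, TGACGTGG, in 0.676%, and CCAAT alone, in 37.4%. An ERSE holds a CCAAT, and an ERSE-II holds it on the opposite strand. The 3 matches to the longer motifs are shown with the match in capitals, on the strand of the gene, because they set 3 ERAD genes beside the Herpud2 promoter.
Herpud1, ERSE-II, chr8:94386362-94386402: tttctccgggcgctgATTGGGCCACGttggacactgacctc
Syvn1, ERSE, chr19:6046517-6046565: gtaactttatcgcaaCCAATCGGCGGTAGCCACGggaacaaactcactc
Vcp, unfolded protein response element core, chr4:43000599-43000636: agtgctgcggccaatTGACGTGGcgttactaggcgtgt

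The matches began 52 bases before the RefSeq start of Herpud1, 44 bases before that of Syvn1 and 114 bases before that of Vcp. None of the 4 sets of letters was in the windows of Herpud2 or Gm29642. Edem1, Sel1l and Derl2 held CCAAT but none of the 3 longer motifs. A match is only a string of letters, and a window without one says nothing about which factors bind there.

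The microRNA that DOX induces has the following mature forms in RefSeq, shown with the seed, bases 2 to 8, in capitals because the seed is what pairs with targets.
mmu-miR-139-5p: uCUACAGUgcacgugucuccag
mmu-miR-139-3p: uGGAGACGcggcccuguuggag

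No match to the 7 seed bases of either form was found in the longest annotated 3′ UTR of Herpud2 or in the whole Gm29642 transcript. Among the ERAD genes, Herpud1 and Derl2 held 1 match each to the miR-139-5p seed, and none held a match for miR-139-3p. Of 14056 tested genes with a 3′ UTR, 13.2% held a match for miR-139-5p and 4.31% for miR-139-3p. The 2 sites are shown with the match in capitals, as in the transcript.
Herpud1 site: tgctatgaatgACTGTAGcagagact
Derl2 site: caaggaatctgACTGTAGagaagcca

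Herpud2 was higher with DOX in every MLL-AF9-i139 clone. Its counts were 1593, 1596 and 1428 in untreated clones 1, 2 and 3, and 8266, 6280 and 3467 in the same clones after DOX. On the CPM scale, normalized by library size and composition, this was 32.6, 36.4 and 36.2 CPM without DOX and 173, 160 and 88.1 CPM with DOX. The groups did not overlap, and the smallest difference was in clone 3. The mean level was 35.1 ± 2.10 CPM without DOX and 140 ± 45.6 CPM with DOX (SD, n = 3 each), and the fitted difference was 4.03-fold. The log2 difference was 2.40 in clone 1, 2.13 in clone 2 and 1.28 in clone 3.

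Gm29642 was low before DOX and showed the larger difference. It had 80, 109 and 53 counts in the 3 untreated clones and 2145, 1280 and 669 after DOX, or 1.64, 2.48 and 1.34 CPM against 44.8, 32.5 and 17.0 CPM. Again the groups did not overlap, and the order of the clones after DOX was that of Herpud2. The mean was 1.82 ± 0.592 CPM without DOX and 31.4 ± 13.9 CPM with DOX (SD, n = 3 each). The fitted difference was 17.4-fold, and the log2 differences within clones were 4.73, 3.69 and 3.61. The fitted log2 fold change was 4.12 (SE 0.40) for Gm29642 and 2.01 (SE 0.24) for Herpud2. Both are given without a test, since this contrast chose them. It called 0.0572% of 19223 genes higher and 0.00520% lower at an adjusted p under 0.05, from which nothing is read for these chosen genes.

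The level of the non-coding RNA relative to its neighbour differed too. Gm29642 counts amounted to 5.02%, 6.83% and 3.71% of the Herpud2 counts in untreated clones 1, 2 and 3, and to 25.9%, 20.4% and 19.3% with DOX. In MLL-AF9-ieGFP this share was 8.72% at 48 h and 3.40% at 72 h in untreated cultures, and 4.71% and 4.29% after DOX. The 3 induced miR-139 libraries stood above the other 7.

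**Figure D1:**
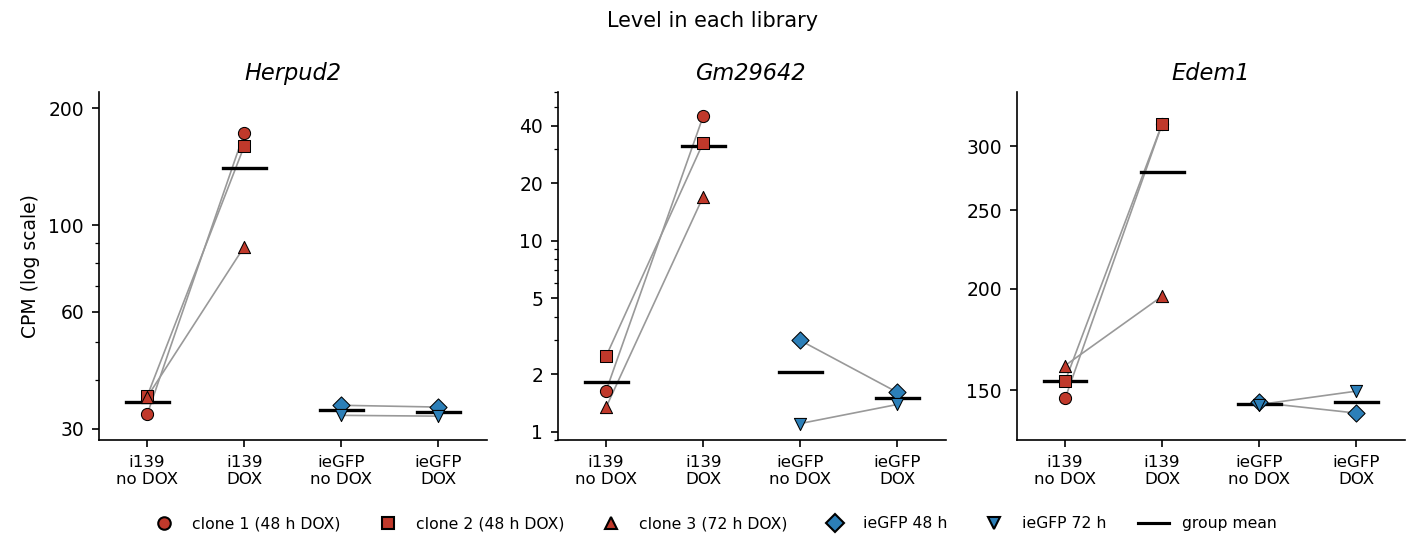
Level of Herpud2, Gm29642 and Edem1 in each of the 10 libraries, in CPM on a log scale, with lines joining the cultures of 1 clone or time and bars for group means. In MLL-AF9-i139 every DOX culture lies above every untreated culture for all 3 genes, with clone 3 the lowest, whereas MLL-AF9-ieGFP cultures stay near the untreated level.

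The MLL-AF9-ieGFP libraries, which played no part in choosing the members, addressed whether DOX alone moves the locus. At 48 h Herpud2 stood at 34.5 CPM without DOX and 34.1 CPM with it, and at 72 h at 32.5 and 32.3 CPM. These values overlapped. The untreated MLL-AF9-i139 libraries spanned 32.6 to 36.4 CPM, and both 72 h values lay just below that range. The log2 fold change was -0.01 (SE 0.24, adjusted p = 1 by edgeR's quasi-likelihood test). The standard error uses a spread shared by all 10 libraries, and was 0.10 without clone 3 of MLL-AF9-i139. Gm29642 was at 3.00 and 1.10 CPM without DOX and at 1.61 and 1.39 CPM with DOX, where the treated values fell between the untreated ones, and its log2 fold change was -0.47 (SE 0.52, adjusted p = 1). This rested on the 48 h pair, with a log2 difference of -0.88, while the 72 h pair gave 0.32. In this contrast 0% of 20269 genes were called (0 genes, with 259 at an unadjusted p under 0.05, 0 with the culture time as a block and 1 by DESeq2), and none of the 9 members was among them.

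The DOX difference in MLL-AF9-i139 minus that in MLL-AF9-ieGFP was 2.01 (SE 0.32) for Herpud2 and 4.58 (SE 0.67) for Gm29642 on the log2 scale, given without a test because the contrast that chose them is part of it. Levels before DOX were compared as well. Untreated MLL-AF9-i139 minus untreated MLL-AF9-ieGFP gave a log2 difference of 0.07 (SE 0.22) for Herpud2 and -0.19 (SE 0.46) for Gm29642. For the 7 ERAD genes it lay between -0.04 and 0.09, and none was called (adjusted p = 1 for each by edgeR), in a comparison that called 0.0444% of 20269 genes.

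The genes around Herpud2 told whether the surroundings moved with the locus. The annotation has 35 genes whose bodies reach within 1 Mb of Herpud2, of which 18 had 0 counts, 5 had 1 to 9 counts and 12, Herpud2 and Gm29642 included, had at least 10 over the 10 libraries. Of the 33 other genes 8 could be tested in the MLL-AF9-i139 libraries, and none was called by edgeR (0 of 8, with 1 at an unadjusted p under 0.05, 1 with the clone as a block and 0 by DESeq2), against 0.0572% of all genes higher and 0.00520% lower. With the clone as a block 7.05% of all genes were called higher and 5.33% lower. Without it, 3959 of 19223 genes had an unadjusted p under 0.05.

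Sept7, a septin gene whose body begins 100.6 kb from Herpud2, was the nearest well expressed neighbour. It had 187, 168 and 179 CPM without DOX and 217, 198 and 185 CPM with DOX. The groups overlapped, and the log2 fold change was 0.18. That of Herpud2 was 2.01, in the contrast that chose it. Gm10180, a processed pseudogene 6.65 kb from the 3′ end of Herpud2, was at 1.74, 2.14 and 1.83 CPM without DOX and at 1.69, 2.54 and 1.78 CPM with DOX, which overlapped.

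On the 3′ side of Herpud2, Dpy19l1, a C-mannosyltransferase gene, had 55.2, 54.0 and 51.5 CPM without DOX and 34.6, 38.9 and 55.5 CPM with DOX. It was lower in clones 1 and 2 but not in clone 3, so the groups overlapped, with a log2 fold change of -0.31. Eepd1, on the opposite side beyond Gm29642 and Sept7, had a log2 fold change of -0.17, and its groups overlapped. Back on the 3′ side, the low genes Gm47772, Gm10701 and Npsr1 gave -0.26, -0.52 and 0.84 and overlapped as well. All of these low genes were under 1 CPM in every MLL-AF9-i139 library. Dpy19l2 and Gm29824, with 12 and 14 counts over all 10 libraries, were too low to test.

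The 1 neighbour called with the clone as a block was Gm8031, a processed pseudogene 76.6 kb from Herpud2 on the far side of Gm29642. It had 2, 1 and 3 counts in the untreated clones, 28, 10 and 6 after DOX, and 8, 4, 3 and 1 in MLL-AF9-ieGFP. The MLL-AF9-i139 groups did not overlap, but the highest MLL-AF9-ieGFP count exceeded that of clone 3 with DOX. Its log2 fold change was 2.82 (SE 0.70, adjusted p = 0.114 by edgeR and 0.0400 with the clone as a block). It rests on 66 counts in all, and reads of a processed pseudogene can come from its parent gene elsewhere.

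**Figure D2:**
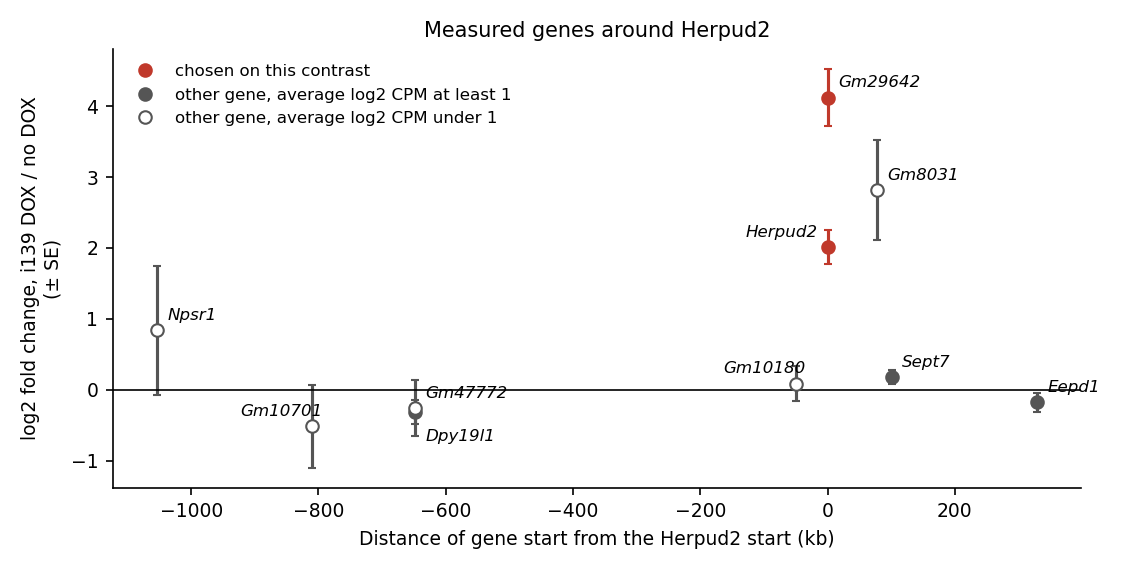
Log2 fold change of MLL-AF9-i139 with DOX over no DOX (± SE, edgeR, n = 3 clones a group) against the distance of each gene's start from the Herpud2 start in kb. Herpud2 and Gm29642, which were chosen on this contrast, sit at 2.01 and 4.12, the well expressed neighbours Sept7, Eepd1 and Dpy19l1 lie between -0.31 and 0.18, and the pseudogene Gm8031 stands at 2.82 on 66 counts.

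The 7 ERAD genes had smaller fitted differences than Herpud2 and Gm29642. Nothing is read from that gap, since this contrast chose Herpud2 and Gm29642. Among the 7 ERAD genes, Edem1 had the largest difference. None passed the test without a clone block (0 of 7 by edgeR, with 4 higher at an unadjusted p under 0.05). That fit called 12 of 19223 genes, with 2187 higher at an unadjusted p under 0.05. With the clone as a block Edem1, Herpud1 and Sel1l passed, all higher, in a fit that called 7.05% of all genes higher. The clone numbers pair the libraries, since each clone was sequenced with and without DOX. In 5 of the 7, DOX and untreated libraries did not overlap, all with DOX above, against 12.0% of all genes with DOX above and 12.8% with DOX below.

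Edem1, a mannosidase-like protein that speeds up the removal of misfolded glycoproteins, was at 146, 154 and 161 CPM without DOX and at 320, 320 and 196 CPM with DOX. The groups did not overlap, with clones 1 and 2 well above clone 3. The mean went from 154 ± 7.18 to 278 ± 71.5 CPM (SD, n = 3 each), with log2 differences of 1.13, 1.06 and 0.28 within clones 1, 2 and 3. The fitted log2 fold change was 0.87 (SE 0.18, adjusted p = 0.0978 by edgeR, 0.0296 with the clone as a block and 0.00176 by DESeq2). Without clone 3, the 72 h clone, it was 1.11 (adjusted p = 0.000335 by edgeR). In MLL-AF9-ieGFP Edem1 stayed between 140 and 150 CPM in all 4 libraries, with a log2 fold change of 0.01 (SE 0.19, adjusted p = 1).

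Herpud1, the stress-induced paralog of Herpud2, was at 50.8, 51.5 and 46.0 CPM without DOX and at 71.5, 70.3 and 55.5 CPM with DOX. Every treated library lay above every untreated one, and clone 3 again had the smallest difference. The log2 fold change of Herpud1 was 0.42 (SE 0.13, adjusted p = 0.134 by edgeR and 0.0330 with the clone as a block), a fitted 1.34-fold difference. That of Herpud2 was 4.03-fold, in the contrast that chose it. In MLL-AF9-ieGFP the log2 fold change of Herpud1 was 0.05 (SE 0.14, adjusted p = 1).

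Sel1l and Syvn1 form the core of the HRD1 complex. Sel1l, which stabilizes the ligase and links it to the lectins, was at 204, 225 and 193 CPM without DOX and at 283, 276 and 236 CPM with DOX, without overlap. Its log2 fold change was 0.37 (SE 0.11, adjusted p = 0.134 by edgeR and 0.0351 with the clone as a block). Syvn1, the ligase, was at 54.3, 62.4 and 58.0 CPM without DOX and at 63.1, 69.4 and 54.5 CPM with DOX. These values overlapped, since clone 3 was lower with DOX, and the log2 fold change was 0.11 (SE 0.12, adjusted p = 0.638).

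The derlins, which form part of the channel through which substrates leave the ER, showed small differences. Derl2 was at 38.2, 38.1 and 40.3 CPM without DOX and at 49.6, 51.2 and 40.6 CPM with DOX. The groups were apart by less than 1 CPM because of clone 3, whose log2 difference was 0.01. The log2 fold change was 0.29 (SE 0.12, adjusted p = 0.225 by edgeR and 0.127 with the clone as a block). Derl1 was at 120, 131 and 135 CPM without DOX and at 146, 150 and 136 CPM with DOX, with a log2 fold change of 0.18 (SE 0.09, adjusted p = 0.328). Vcp, the ATPase that many other pathways use as well, was at 257, 293 and 267 CPM without DOX and at 246, 259 and 241 CPM with DOX. Its groups overlapped, and the log2 fold change was -0.12 (SE 0.09, adjusted p = 0.502).

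Leaving out clone 3 changed the calls. Without it, edgeR called Edem1, Herpud1, Sel1l and Derl2 higher (adjusted p = 0.000335, 0.00697, 0.0212 and 0.0138), and it then called 11.6% of 18359 genes higher and 10.1% lower. Without clone 1 or without clone 2 none of the 7 was called, in fits that called only 1 and 0 of all genes tested. Clone 3 had both the longer DOX time and the smallest log2 difference of the 3 clones in Herpud2, Gm29642, Edem1, Herpud1, Sel1l, Syvn1, Derl1 and Derl2.

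None of the 7 was called in MLL-AF9-ieGFP, where their log2 fold changes lay between -0.05 and 0.12 (adjusted p = 1 for each by edgeR). The test of the difference between the constructs did not pass for any of them either, in a comparison that called 0.00493% of 20269 genes. Edem1 came nearest, with a log2 difference between the constructs of 0.85 (SE 0.25, unadjusted p = 0.00578, adjusted p = 0.527 by edgeR and 0.109 with the clone as a block). For the other 6 it ran from -0.15 to 0.36. Without clone 3 the test passed for 1 of the 7, Edem1. The share of all genes called in that fit is not given here, so nothing is read from this call.

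**Figure D3:**
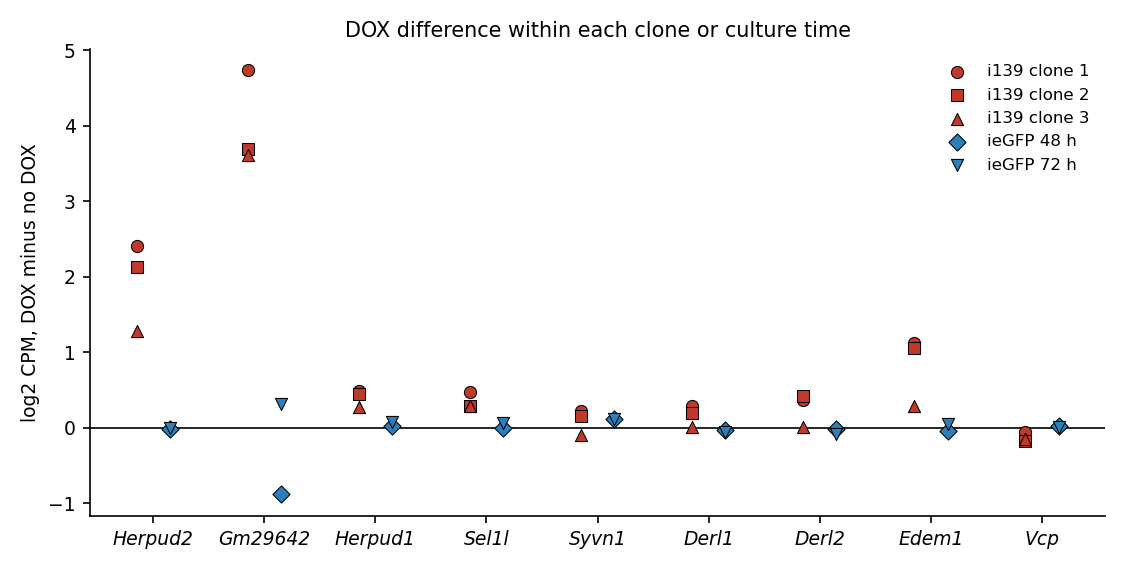
Difference in log2 CPM between DOX and no DOX within each MLL-AF9-i139 clone and each MLL-AF9-ieGFP culture time, for the 9 genes. Herpud2 and Gm29642 lie from 1.28 to 4.73 in the 3 clones, Edem1 from 0.28 to 1.13, and the other ERAD genes between -0.17 and 0.49.

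On a scale of CPM per kilobase of exon, which allows genes to be compared, the order of the members differed with DOX. In untreated MLL-AF9-i139 libraries Vcp (56.1) and Derl1 (38.6) were the highest, followed by Sel1l (24.3) and Edem1 (23.8), whose ranges overlapped, then Herpud1 (21.2) and Syvn1 (12.0). Herpud2 (5.99) came seventh, below Syvn1 and above Derl2 (4.83), and Gm29642 (1.98) last, each clear of its neighbours. With DOX the mean of Gm29642 was 34.1 and that of Herpud2 23.9 per kilobase. Ranges then overlapped between each gene and the next from Derl1 (43.3) through Edem1 (43.1), Gm29642, Sel1l (31.0) and Herpud1 (28.2) to Herpud2. In both MLL-AF9-ieGFP groups the order was that of the untreated MLL-AF9-i139 libraries.

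Over all 10 libraries, Pearson's r of log2 CPM with Herpud2 was 0.98 for Edem1 and for Gm29642, 0.93 for Herpud1, 0.92 for Sel1l, 0.90 for Derl1 and Derl2, 0.59 for Syvn1 and -0.70 for Vcp. Among 10761 genes compared, those most like Herpud2 were Tgfbr2, Cnksr3, Cd300c2, Setd7 and Gsdmd (r = 0.99 each), of which Tgfbr2 also lies on chromosome 9 but outside the 1 Mb window. Those most like Gm29642 were Nfatc2, Herpud2, Rab21, Nod2 and Arel1 (r = 0.98 each). All these values describe 10 points that share the same 3 induced libraries.

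The wider pathway was read from a list of 53 ERAD genes that holds the 7 above. Erlec1 and Yod1 had 0 counts, and 51 could be tested. Without a block none was called (0 of 51 by edgeR, with 8 higher and 0 lower at an unadjusted p under 0.05). That fit called 12 of 19223 genes, with 2187 higher and 1772 lower at an unadjusted p under 0.05. With the clone as a block 6 of 51 were called, all higher, where 7.05% of all genes were called higher. These were Edem1, Herpud1 and Sel1l, together with Edem2, which trims mannose ahead of Edem1, Os9, a lectin that hands glycoproteins to the ligase complex, and Tmub2, a membrane protein with a ubiquitin-like domain. DESeq2 called 4 higher and none lower, among 5.03% of all genes higher and 3.07% lower. Of the 44 tested genes outside the 7 chosen ones, 3 were called higher with the block and 3 by DESeq2, with none lower.

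DOX and untreated libraries were apart with DOX above for 27.5% of the 51 genes, against 12.0% of all genes. They were apart with DOX below for 5.88%, against 12.8%. The median log2 fold change of the list was 0.06, against 0.01 over all 19223 genes. In the clones its median log2 difference was 0.14, 0.09 and 0.02, in the order 1 to 3, and in MLL-AF9-ieGFP it was -0.01 at 48 h and 0.03 at 72 h. Leaving out the 7 chosen genes, the median over the other 44 was 0.05. Of these 44, 20.5% were apart with DOX above and 6.82% with DOX below.

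The highest of the well expressed genes of the list were Edem1, Tmub2 and Edem2. Tmub2 went from a mean of 21.6 to 32.4 CPM, a log2 fold change of 0.60 (SE 0.19, adjusted p = 0.141 by edgeR and 0.0445 with the clone as a block). Edem2 went from 72.3 to 105 CPM, at 0.55 (SE 0.15, adjusted p = 0.124 and 0.0285). Os9, named after its values were seen, stood at 0.36 (SE 0.09, adjusted p = 0.120 and 0.0415). The lowest were Svip, which encodes an inhibitor of Vcp, at -0.21 (adjusted p = 0.624), Rad23b, a shuttle to the proteasome, at -0.19 (adjusted p = 0.365), and Ubqln1, another shuttle, at -0.18 (adjusted p = 0.353). Without clone 3, 9 of the list were called higher and 1, Svip, lower, where 11.6% of all genes were called higher and 10.1% lower.

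A list of 25 unfolded protein response genes, of which 4 (Dnajb9, Edem1, Herpud1 and Sdf2l1) are also in the ERAD list, was read next. None was called without a block (0 of 25 by edgeR, with 3 higher at an unadjusted p under 0.05). That fit called 12 of 19223 genes, with 2187 higher at an unadjusted p under 0.05. With the clone as a block Edem1, Herpud1 and Trib3 were called higher, in a fit that called 7.05% of all genes higher and 5.33% lower. Trib3, a pseudokinase gene downstream of ATF4, had a log2 fold change of 0.49 (SE 0.39, adjusted p = 0.506 and 0.0494 with the block), and 0.41 in MLL-AF9-ieGFP. Hspa5, the central ER chaperone BiP, had a mean of 907 CPM without DOX and 757 CPM with DOX (log2 fold change -0.25, SE 0.11, adjusted p = 0.253), and Calr, calreticulin, had -0.24 (SE 0.12, adjusted p = 0.292). Atf4 was lowest at -0.29 (SE 0.28, adjusted p = 0.594). The list's median was 0.01, as over all genes, with 13 genes above 0 and 12 below. Its median log2 difference was -0.03, -0.15 and 0.10 in clones 1, 2 and 3. In MLL-AF9-ieGFP 23 of the 25 genes were above 0, with a median of 0.05 and none called. Without clone 3, Edem1 and Herpud1 were called higher and Atf4, Hspa5 and Manf lower, against the same 11.6% and 10.1% of all genes.

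The proteasome subunits, which break down what ERAD exports, lay mostly on the other side of 0. Of 32 subunits 30 had a negative log2 fold change, with a median of -0.19, against 0.01 over all genes and -0.05 for the subunits in MLL-AF9-ieGFP. None was called without a block (0 of 32 by edgeR, with 0 higher and 14 lower at an unadjusted p under 0.05). That fit called 12 of 19223 genes, with 2187 higher and 1772 lower at an unadjusted p under 0.05. Psmd3, Psmb7 and Psmb3 were called lower with the clone as a block, where 5.33% of all genes were called lower. In 16 of the 32 subunits all DOX libraries were below all untreated ones, against 12.8% of all genes. Psmd3, of the lid of the regulatory particle, went from a mean of 186 to 138 CPM (log2 fold change -0.42, SE 0.14, adjusted p = 0.166 and 0.0282 with the block). Psmb7, a catalytic subunit, was at -0.36 (SE 0.10, adjusted p = 0.120 and 0.0363), and Psma5, of the outer ring, at -0.32 (SE 0.10, adjusted p = 0.153 and 0.0620). The highest were Psmb5 at 0.12 and Psmd8 at 0.11, followed by Psmb1 at -0.02. The median log2 difference of the list was -0.22, -0.20 and -0.17 in clones 1, 2 and 3, so it was nearly as large in clone 3, unlike that of Herpud2 and Edem1. Untreated MLL-AF9-i139 minus untreated MLL-AF9-ieGFP was itself below 0 in all 32 subunits, with a median log2 difference of -0.09 and none called by edgeR.

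**Figure D4:**
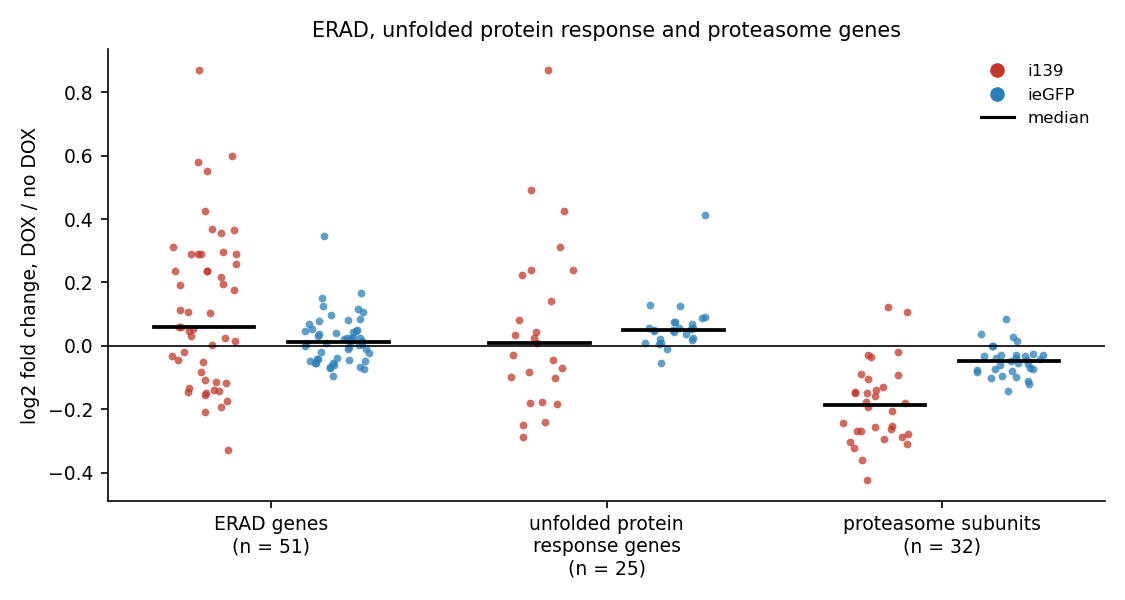
Log2 fold change of DOX over no DOX for each tested gene of the ERAD list (n = 51), the unfolded protein response list (n = 25) and the proteasome subunits (n = 32), in MLL-AF9-i139 and MLL-AF9-ieGFP, with bars for medians. The MLL-AF9-i139 medians are 0.06, 0.01 and -0.19, and Edem1, which is in both of the first lists, is the highest point at 0.87.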

How the data were processed

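RNA was extracted with TRIzol, depleted of ribosomal RNA and sequenced. The authors mapped reads to GRCm38 with STAR (version 2.5.3e) and counted them per gene with featureCounts (version 1.6.0) on a GENCODE annotation. They deposited raw counts in 2 tables that agree in all 10 libraries (0 differing values). One holds 14 columns of other samples, not used here. Per-gene counts ranged from 35133308 to 47089725 in total per library.

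In R 4.3.3, counts were normalized with TMM and tested by the quasi-likelihood method of edgeR 4.0.16, with Benjamini-Hochberg adjustment over all genes with at least 10 counts in total and a threshold of 0.05. MLL-AF9-i139 was fitted on 6 libraries without a block. MLL-AF9-ieGFP, the difference between constructs and the untreated comparison came from a fit of all 10 libraries in 4 groups, because each MLL-AF9-ieGFP group has 2 libraries. Log2 differences within clones use a prior count of 2. Standard errors are the log2 fold change divided by the square root of F. Exon lengths and neighbours came from GENCODE M21, promoter and microRNA sequences from RefSeq (GRCm38.p6).

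Members and lists were chosen with earlier results of these data known. The text names the 9 members, of each list the genes called without a block and the 3 highest and 3 lowest with an average log2 CPM of at least 1, and every neighbour with at least 10 counts. Likeness was ranked by Pearson's r of log2 CPM. Clone numbers pair the libraries: deviations from the group means correlated at 0.38, 0.29 and 0.41 within clones 1, 2 and 3 over 19223 genes, and at -0.32 to -0.04 between clones. Alternatives were a clone block, DESeq2 (version 1.42.0), RLE factors, other filters, all 10 libraries, a 250 kb window and each clone or culture time left out. Recovery was tested on simulated counts of 19223 genes with clone effects, 200 of them changed by a log2 fold of 2. There edgeR recovered 88% without and 100% with the block, the latter with 1.96% false calls, and DESeq2 96%. The largest fitted log2 fold change in the ERAD, unfolded protein response and proteasome lists was 0.87, for Edem1. The recovery rates therefore do not show how often changes of the size seen in those lists would be called.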

Additional observations from a re-analysis of the deposited data

Results flagged for a closer look

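Herpud2 was higher with DOX in all 3 MLL-AF9-i139 clones, whereas its MLL-AF9-ieGFP differences lay just under 0 at both culture times. It is listed because the signs differ, and that difference in sign rests on values near 0. The log2 differences were 2.40, 2.13 and 1.28 in the clones, and -0.02 and -0.01 at 48 h and 72 h. The difference between the constructs was 2.01 on the log2 scale. That difference was not tested, because the MLL-AF9-i139 contrast chose the gene. The MLL-AF9-ieGFP differences are far smaller than 0.24, the standard error of the fitted MLL-AF9-ieGFP log2 fold change. That error uses a spread shared by all 4 groups, and was 0.10 without clone 3 of MLL-AF9-i139.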

How the results depend on the processing

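Of the counts of genes called in MLL-AF9-i139, which were 0 in each list, those of the ERAD list became 6 with the clone as a replicate block, 4 by DESeq2, 1 with genes of at least 1 count and 4 with all 10 libraries fitted. The unfolded protein response list gave 3, 1, 1 and 1 in the same order. The proteasome list gave 3 with the block, 1 by DESeq2 and 1 with all 10 libraries, and the genes within 1 Mb of Herpud2 gave 1 with the block and 1 with all 10 libraries. Leaving out a clone gave 0 to 10 for ERAD, 0 to 5 for the unfolded protein response, 0 to 7 for the proteasome and 0 to 2 for the neighbours, with each highest value reached without clone 3. Calls over all genes moved too, from 12 in the main fit to 2381 with the block and 1556 by DESeq2. They were 2122 higher and 1859 lower without clone 3, against 1 without clone 1 and 0 without clone 2. For the fits with genes of at least 1 count and with all 10 libraries, calls over all genes are not given. Nothing is read from the list counts of those fits. Without clone 3 the difference between constructs was called for 1 ERAD member (0 to 1), in a fit whose share over all genes is not given. Gm29642 in MLL-AF9-ieGFP turned from -0.47 to 0.32 without the 48 h culture and was -0.90 without the 72 h one. The cause was not tested. In MLL-AF9-i139 the fitted differences of the 7 ERAD genes kept their direction under every alternative. Those of Herpud2 and Gm29642 did too, from which nothing is read, since this contrast chose them. Each MLL-AF9-ieGFP group has 2 libraries of 1 clone, and the genes of the window under 10 counts were not tested.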
